A study of Mus musculus with 12 samples.

Results

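A group of 6 genes with little known role in leukemia measured lower or higher after loss of the energy-sensing kinase AMPK in mouse leukemia cells that carry the oncogene MLL-AF9. They were taken by symbol as 1700080G11Rik, Msantd3, Dennd5b, Tns1, Tnfrsf26 and Usp24, and had been chosen for knockout differences of like direction in 2 sorted populations, so those differences are a description and carry no test. The 6 genes were 6 of the 22180 genes with a probe set of their own on the array, and all 6 were among the 17749 genes kept after the dimmest 25% of probe sets were set aside. Where a gene had several probe sets naming no other gene, the one of highest mean over the 12 arrays was read. Of the 6, only Dennd5b had a second probe set.

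The series holds 4 groups of 3 arrays, all from bone marrow of C57BL/6J mice. Each recipient was given 10 Gy and 50000 stem and progenitor cells with MLL-AF9, so all 4 groups share the oncogene. The donor cells were either AMPKfl/fl, with floxed and intact AMPK, called wild type here, or AMPKΔ/Δ, with AMPK deleted, called knockout. When a recipient fell ill, 5000 cells were sorted. They were either all GFP+ cells, called whole leukemia, or L-GMP, the granulocyte-macrophage progenitors of the leukemia, gated as GFP+, lin-, c-kit+, CD16/32+ and CD34+. The labels name neither the deleted AMPK subunit nor the Cre driver. They also do not say that replicates come from separate mice, so errors and p-values cover the spread among these arrays alone, some or all of it perhaps technical.

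AMPK switches on when cellular ATP runs low, and phosphorylates enzymes and regulators that save or regain energy. The 6 genes are not textbook parts of that pathway. 1700080G11Rik is annotated as a long non-coding RNA with no known function. Msantd3 encodes a protein with a Myb/SANT-like DNA-binding domain. Dennd5b encodes a DENN domain protein, a family of activators of the Rab GTPases that direct vesicle traffic. Tns1 encodes tensin 1, which links integrins to the actin cytoskeleton at cell adhesions. Tnfrsf26 encodes a mouse receptor of the tumor necrosis factor family without a death domain. Usp24 encodes a deubiquitinase, an enzyme that removes ubiquitin from proteins.

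Array medians lay between 36.9 and 39.3 intensity units. Array 2 of the knockout whole leukemia lay far out on the first principal component (67.4, with 32.4% of the variance). On the second component (17.0%) the array farthest out was array 2 of the knockout L-GMP, at -41.3. Prkaa1, the AMPK alpha 1 subunit gene, measured 114 to 159 in knockout and 255 to 322 in wild-type L-GMP, and 124 to 175 against 211 to 413 in whole leukemia, so the genotypes did not overlap. Prkaa2, the alpha 2 subunit gene, stayed between 25.3 and 33.2 in all groups, at about the 26.3 below which genes were set aside. A probe set outside the deleted part would not measure the deletion. Of the 4 gate genes, Cd34 had mean log2 levels of 9.76 in wild-type and 9.67 in knockout L-GMP, and of 8.74 and 6.41 in whole leukemia, with every L-GMP array above every whole leukemia array (average difference 2.14, SE 0.26, limma adjusted p = 0.145). The Cd34 difference of knockout from wild-type whole leukemia was -2.32 (SE 0.37, limma adjusted p = 0.478). Averaged over genotypes, the L-GMP minus whole leukemia difference was 0.85 for Kit, 0.21 for Fcgr2b and -0.12 for Fcgr3, and none of the 4 genes was called.

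Of the 6 genes 3 measured lower in the knockout, and 1700080G11Rik differed most of them in L-GMP. In wild-type L-GMP its intensity was 144, 202 and 202 on arrays 1, 2 and 3, and in knockout L-GMP it was 42.8, 24.7 and 21.5. Every knockout array lay far below every wild-type array, and knockout arrays 2 and 3 lay below the mean of 26.3 under which genes were set aside as dim. In whole leukemia the wild-type arrays read 99.2, 175 and 107 and the knockout arrays 26.3, 30.7 and 27.2, again with no overlap. The mean log2 level was 7.49 ± 0.28 (SD, n = 3) in wild-type and 4.82 ± 0.52 in knockout L-GMP, a difference of -2.67 (SE 0.28), or 0.157-fold. In whole leukemia it was 6.94 ± 0.45 and 4.81 ± 0.12, a difference of -2.14 (SE 0.28), or 0.227-fold. Since knockout levels lay at the dim end, these folds are not exact. With an offset of 16 added to each intensity before log2 the differences were -2.13 and -1.66. The sequence upstream of its annotated start is shown because this gene had the largest L-GMP difference of the 6 (RefSeq, GRCm38.p6, chr4:127474591-127474840, plus strand, with the E-box CACGTG in capitals).
1700080G11Rik: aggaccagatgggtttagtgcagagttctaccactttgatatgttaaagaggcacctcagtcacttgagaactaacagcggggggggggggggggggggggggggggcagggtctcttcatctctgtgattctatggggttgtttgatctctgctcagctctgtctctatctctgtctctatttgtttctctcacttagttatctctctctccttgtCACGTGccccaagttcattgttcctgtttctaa

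Dennd5b followed the same pattern with a wider spread. Its intensity in wild-type L-GMP was 88.7, 269 and 71.4 on arrays 1, 2 and 3, and in knockout L-GMP it was 33.8, 24.0 and 25.7. The genotypes did not overlap, but wild-type L-GMP array 2 lay far above the other wild-type L-GMP arrays. In whole leukemia the wild-type arrays read 146, 177 and 108 and the knockout arrays 21.7, 33.5 and 25.9, with no overlap and with wild-type array 2 again the highest. The log2 difference was -2.12 (SE 0.42), or 0.231-fold, in L-GMP and -2.40 (SE 0.42), or 0.189-fold, in whole leukemia. Of the 6 knockout arrays 4 lay below 26.3, so these folds are not exact either, and with the offset of 16 the differences were -1.66 and -1.88. Without wild-type L-GMP array 2 the L-GMP difference was -1.53. The SD among the 3 wild-type L-GMP arrays, 1.03 log2, was larger than that of 99.2% of the genes tested in that group. The second Dennd5b probe set ranged from 56.6 to 202 in wild-type and from 22.2 to 33.5 in knockout L-GMP, with differences of -1.78 in L-GMP and -1.58 in whole leukemia. Over the 12 arrays both probe sets correlated at r = 0.98. Its upstream sequence, shown beside that of 1700080G11Rik because these 2 genes had the largest differences, holds none of the motifs searched (RefSeq, GRCm38.p6, chr6:149101681-149101930, minus strand).
Dennd5b: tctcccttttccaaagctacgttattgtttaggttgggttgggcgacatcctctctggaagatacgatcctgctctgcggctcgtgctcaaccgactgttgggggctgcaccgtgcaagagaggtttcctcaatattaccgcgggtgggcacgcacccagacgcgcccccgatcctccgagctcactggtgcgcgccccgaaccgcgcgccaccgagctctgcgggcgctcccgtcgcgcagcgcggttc

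Tns1 differed less and stayed well above the dim end in both genotypes. In L-GMP it measured 150, 173 and 187 in the wild type and 72.1, 64.1 and 96.7 in the knockout. In whole leukemia it measured 222, 226 and 124 in the wild type and 66.4, 82.5 and 65.9 in the knockout. Neither population showed overlap, and wild-type whole leukemia array 3 was the wild-type array closest to the knockouts. The log2 difference was -1.15 (SE 0.23), or 0.452-fold, in L-GMP and -1.37 (SE 0.23), or 0.388-fold, in whole leukemia.

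The other 3 genes measured higher in the knockout. Msantd3 read 34.9, 45.5 and 36.5 on the wild-type L-GMP arrays and 120, 161 and 84.7 on the knockout L-GMP arrays. In whole leukemia it read 40.3, 43.7 and 48.5 in the wild type and 132, 72.1 and 99.0 in the knockout. The genotypes did not overlap in either population, and the knockouts spread more widely, with SDs of 0.46 and 0.44 log2 against 0.21 and 0.13. The log2 difference was 1.60 (SE 0.25), or 3.04-fold, in L-GMP and 1.15 (SE 0.25), or 2.22-fold, in whole leukemia. Wild-type levels lay toward the dim end, so these folds are also not exact. With the offset of 16 the differences were 1.29 and 0.93.

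Tnfrsf26 was the 1 gene of the 6 whose genotypes overlapped in a population. In L-GMP it measured 141, 99.99 and 120 in the wild type and 271, 283 and 334 in the knockout, with no overlap. In whole leukemia it measured 120, 138 and 190 in the wild type and 396, 173 and 293 in the knockout. Knockout whole leukemia array 2, the array that stood apart over all genes, lay below wild-type array 3. The log2 difference was 1.31 (SE 0.28), or 2.48-fold, in L-GMP and 0.89 (SE 0.28), or 1.86-fold, in whole leukemia. Without knockout whole leukemia array 2 the latter was 1.22, and without knockout whole leukemia array 1 it was 0.62.

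Usp24 had the smallest differences of the 6 genes. Its wild-type L-GMP arrays read 159.7, 160.0 and 160.6, and its knockout L-GMP arrays 222, 284 and 242. Only 0.0789% of the genes tested had a smaller SD in wild-type L-GMP than the 0.0040 log2 of Usp24. In whole leukemia it read 152, 129 and 167 in the wild type and 230, 215 and 199 in the knockout, with no overlap. The log2 difference was 0.63 (SE 0.12), or 1.55-fold, in L-GMP and 0.53 (SE 0.12), or 1.44-fold, in whole leukemia. Its upstream sequence is shown because Usp24 lies next but one to Prkaa2 in gene order, as described further on (RefSeq, GRCm38.p6, chr4:106315963-106316212, plus strand, with the GC boxes of either strand in capitals).
Usp24: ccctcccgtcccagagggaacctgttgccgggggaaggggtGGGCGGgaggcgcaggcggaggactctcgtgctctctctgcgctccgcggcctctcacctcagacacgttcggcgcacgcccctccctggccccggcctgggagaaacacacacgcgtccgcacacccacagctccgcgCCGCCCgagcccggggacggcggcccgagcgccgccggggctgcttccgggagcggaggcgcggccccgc

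**Figure D1:**
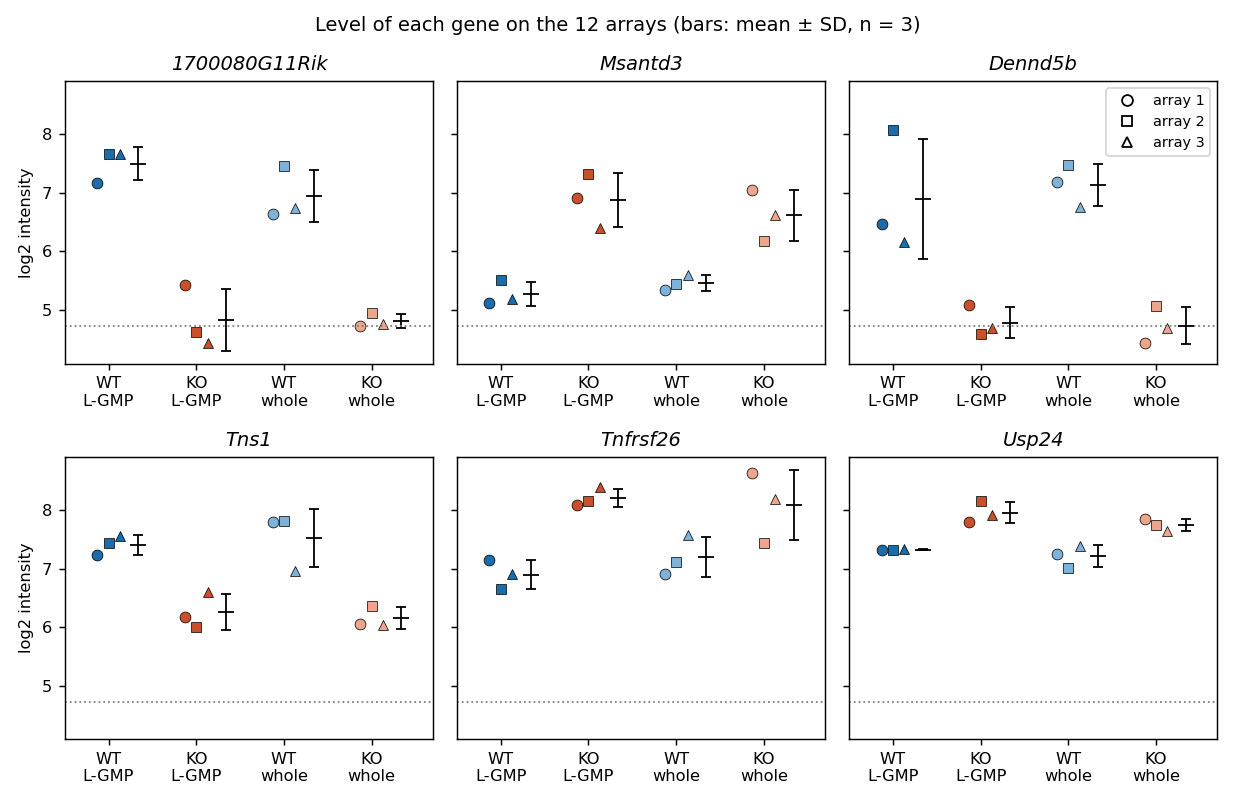
Log2 intensity of the 6 genes on the 12 arrays, by group, with circles, squares and triangles for arrays 1, 2 and 3, bars for the group mean ± SD (n = 3) and a dotted line at the log2 level below which genes were set aside (4.72). 1700080G11Rik, Dennd5b and Tns1 are lower and Msantd3, Tnfrsf26 and Usp24 higher in the knockout, and knockout whole leukemia array 2 of Tnfrsf26 (log2 7.43) lies below wild-type array 3 (7.57).

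In L-GMP 3 of the 6 genes had all knockout arrays below all wild-type arrays, as had 3.66% of all genes tested, and 3 had them all above, as had 5.82%. In whole leukemia 3 lay fully below, against 5.73% of all genes, and 2 fully above, against 5.46%. Both populations together held 218 genes without overlap in like direction (1.23% of those tested), with 0.625% of all genes lower and 0.603% higher, and 5 of the 6 among them. These shares are background, and since the genes were chosen on these differences nothing is read from the counts. Ordered by the smaller of both differences, 1700080G11Rik and Dennd5b were the second and the third of all genes, behind Stag3, a subunit gene of meiotic cohesin, with knockout levels of both at the dim end. For Usp24, 276 genes, itself included, had like-direction differences at least as large. L-GMP differences were larger than whole leukemia differences in 4 of the 6 genes (1700080G11Rik, Msantd3, Tnfrsf26 and Usp24), at 1.19 to 1.47 times on the log2 scale, and smaller in Dennd5b and Tns1. Whether the 2 populations differed in these differences was not tested, because the choice for like direction bears on it.

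Levels of cell type markers are given beside these differences, as means of log2 levels over each list, and limma called 0 genes of these lists between genotypes. The 8 erythroid markers tested of 12 lay at 5.36 to 5.49 in wild-type and 5.50 to 6.27 in knockout L-GMP, and at 5.32 to 5.44 and 5.55 to 9.42 in whole leukemia, where knockout array 2 held the highest value. Of the 14 neutrophil markers 13 measured higher in knockout whole leukemia, with a median difference of 1.31, led by Retnlg (3.48) and Ly6g (2.66), while in L-GMP 7 were higher and 7 lower (median 0.02). The neutrophil list nevertheless overlapped between genotypes, at 7.90 to 10.13 in wild-type and 8.95 to 11.37 in knockout whole leukemia. The 14 monocyte and macrophage markers tested of 15 lay at 8.83 to 9.19 in wild-type and 8.07 to 8.60 in knockout whole leukemia, and overlapped in L-GMP at 8.05 to 8.78 and 7.41 to 8.17. The 8 T and NK cell markers tested of 11 lay at 4.97 to 5.13 and 5.24 to 5.74 in L-GMP and at 5.17 to 5.27 and 5.43 to 5.88 in whole leukemia. That list's median differences were only 0.03 and 0.07, with Nkg7, a granule protein gene, at 2.50 and 1.64 and Cd3d at 0.36 and 1.42, whereas Klrb1c (-0.12 and -0.12) and Ncr1 (-0.10 and -0.03) pointed the other way. On knockout L-GMP arrays 1, 2 and 3 the eosinophil, basophil and mast cell list read 6.14, 7.71 and 5.77, against a wild-type range of 5.63 to 5.80. On knockout whole leukemia arrays 1, 2 and 3 it read 5.57, 6.62 and 5.74, against a wild-type range of 5.58 to 5.67. Of 10 stem and progenitor markers 7 were higher and 3 lower in knockout L-GMP and 5 each way in whole leukemia (median differences 0.21 and 0.02). Flt3 was at -1.23 and -2.26 and Meis1 at -0.57 and -1.11, whereas Ms4a3 was at 1.26 and 0.69 and Mpo at 0.44 and 0.28. Median differences of the B cell, megakaryocyte and stromal lists lay between 0.01 and 0.14. The genes named from these lists were chosen after their values were seen. The part of these cells in the 6 differences was not tested. A gene measured in sorted cells in bulk can also not show whether fewer cells express it or each cell holds less RNA. Both number-2 knockout arrays, which stood apart, were also left out, and the differences in L-GMP and whole leukemia were taken again. They were -2.57 and -2.20 for 1700080G11Rik, -2.02 and -2.57 for Dennd5b, and -1.02 and -1.47 for Tns1. For the genes higher in the knockout they were 1.38 and 1.37 (Msantd3), 1.34 and 1.22 (Tnfrsf26) and 0.53 and 0.53 (Usp24). All 6 genes were then without overlap in both populations. The knockout array by which Tnfrsf26 overlapped was among those left out, and fewer arrays overlap less readily. The share over all genes was not counted for this setting, so nothing is read from the count. This alternative was chosen after seeing the data.

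The comparison of L-GMP with whole leukemia, averaged over genotypes, is at right angles to the genotype differences and so tests the 6 genes on a measure that did not choose them. By limma over all genes, 0 of the 6 were called at an adjusted p under 0.05, as were 0% of all genes tested. At an unadjusted p under 0.05 there were also 0 of the 6, against 7.52% of all genes. The largest difference belonged to 1700080G11Rik, 0.28 log2 higher in L-GMP (SE 0.20, 95% interval -0.15 to 0.72, limma adjusted p = 0.735). Usp24 was 0.16 higher (SE 0.08, interval -0.03 to 0.35, limma adjusted p = 0.682). The intervals of the other 4 ran from -0.36 to 0.44 for Msantd3, from -0.75 to 0.57 for Dennd5b, from -0.38 to 0.36 for Tns1 and from -0.53 to 0.35 for Tnfrsf26. Each interval holds the differences that these arrays leave possible, and it is not a limit of detection.

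**Figure D2:**
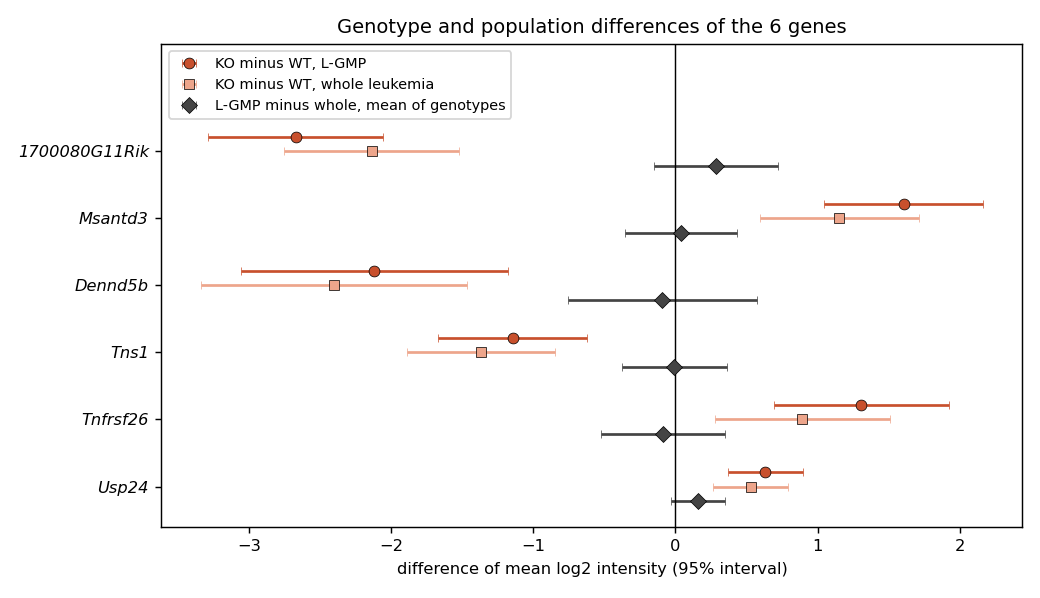
Differences of mean log2 intensity with 95% intervals for knockout minus wild type in L-GMP (circles) and in whole leukemia (squares) and for L-GMP minus whole leukemia averaged over genotypes (diamonds). The genotype differences, which chose the genes, run from -2.67 to 1.60. Their intervals make no allowance for that choice, so they are no test against 0. All 6 population intervals include 0.

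Within one genotype the arrays of L-GMP and whole leukemia overlapped for all 6 genes. Over all genes they were apart for 10.3% (wild type) and 10.2% (knockout), so with 6 genes nothing is read from this. In the wild type the L-GMP level was 0.55 log2 above that of whole leukemia for 1700080G11Rik (SE 0.28) and between 0.30 below and 0.11 above for the others. In the knockout it lay between 0.02 above, for 1700080G11Rik, and 0.27 above, for Msantd3. The order of the 4 group means put both wild-type groups together at one end and both knockout groups at the other in each gene, which is a description, since the genes were chosen for genotype differences. Neighbours in that order of the same genotype did not separate. Outside this order, wild-type arrays of number 2 were the highest of their group for Dennd5b in both populations. Over all genes, deviations from the group means of wild-type number-2 arrays correlated between populations at r = 0.62.

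Variation inside the groups was compared between the 6 genes as correlations of deviations from the 4 group means over the 12 arrays, as a description. Over the arrays as they are, the 6 pairs of genes with like direction correlated at r = 0.81 to 0.91 and the 9 pairs of opposite direction at -0.92 to -0.83, values that the genotype groups set. After removal of the group means the 6 like pairs correlated at 0.19 to 0.44. Of the 9 opposite pairs 7 lay below 0, down to -0.64 for 1700080G11Rik with Usp24, and 2 above, the highest at 0.10. Deviations from a group mean share the arrays and have 8 degrees of freedom.

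**Figure D3:**
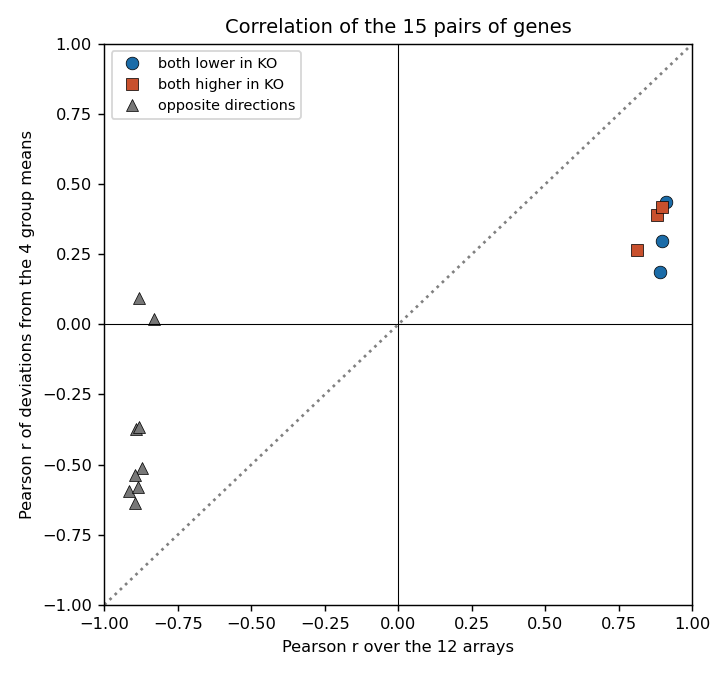
Pearson correlation of the 15 pairs among the 6 genes over the 12 arrays (horizontal axis) and of the same values after subtraction of the 4 group means (vertical axis), with the line of equality dotted. Pairs of like direction stay above 0, at 0.19 to 0.44, and 7 of the 9 pairs of opposite direction lie below 0.

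The genes whose pattern over the 12 arrays was most like each of the 6 are named as a description, by Pearson r. Stag3 came first for 1700080G11Rik (r = 0.94, Spearman correlation 0.78) and for Dennd5b (r = 0.96, Spearman correlation 0.90), and second for Tns1 (r = 0.93, Spearman correlation 0.86). Stag3 measured 247 to 594 in wild-type and 44.4 to 70.7 in knockout L-GMP, and 196 to 428 and 38.9 to 70.0 in whole leukemia, so its genotypes did not overlap either. After removal of group means Stag3 correlated at 0.76 with Dennd5b, at 0.53 with Tns1 and at 0.20 with 1700080G11Rik. Wild-type L-GMP array 2 was the highest of its group for both Stag3 (594) and Dennd5b (269). How far the 0.76 rests on that array was not tested. The ubiquitin ligase gene Mid1 (r = 0.93) and Sdccag8 (r = 0.93), a centrosome protein gene, followed for 1700080G11Rik, the transcription factor gene Dmtf1 (r = 0.94) and Get3 (r = 0.91), an ATPase gene of membrane protein insertion, for Dennd5b. Tns1 was most like Slc4a8, a bicarbonate transporter gene (r = 0.93), and in the third place like the sorting nexin gene Snx1 (r = 0.91).

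Of the genes higher in the knockout, Msantd3 was most like Fgl2 (r = 0.94, Spearman correlation 0.85), which encodes a fibrinogen-like protein and measured 1.17 log2 higher in knockout L-GMP and 0.94 higher in knockout whole leukemia. Mospd3 (r = 0.92) and Wwc2 (r = 0.89) followed. Tnfrsf26 was most like Naip3 (r = 0.91, Spearman correlation 0.94), although Naip3 differed between genotypes by only 0.10 and 0.07 log2. The next were Ankrd13a (r = 0.90) and Inafm2 (r = 0.89). Usp24 was most like F2rl3, a thrombin receptor gene (r = 0.92, Spearman correlation 0.94), Trim6 (r = 0.91) and Cep68 (r = 0.91). After removal of group means, Cep68 and Trim6 still correlated with Usp24 at 0.87 and 0.86. For all 18 of these pairings r lay between 0.84 and 0.96 without the 2 arrays farthest from the gene's median. The genotype groups bear on these r values and remain when 2 arrays are left out, so this range tests nothing. After removal of group means the 18 pairings ran from 0.14, for Mid1 with 1700080G11Rik, to the 0.87 of Cep68 with Usp24.

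Relatives of the 6 genes were listed to see whether families moved with them. By limma over all genes, 0 of the 127 listed relatives tested were called in L-GMP, where 0.00563% of all genes (1 gene) were. In whole leukemia 0 were called, as were 0% of all genes. At an unadjusted p under 0.05 there were 4 relatives in L-GMP, against 4.13% of all genes, and 9 in whole leukemia, against 5.97%. The median difference of the relatives was 0.04 in L-GMP and 0.00 in whole leukemia, beside 0.02 and -0.00 over all genes. In knockout L-GMP 72 relatives measured higher and 55 lower, beside 9735 and 8014 of all genes. In whole leukemia these counts were 64 and 63, beside 8810 and 8939. Arrays of the genotypes did not overlap for 7.87% of the relatives in L-GMP and 6.30% in whole leukemia, against 9.48% and 11.2% of all genes. Dennd6a, another DENN domain gene, was the 1 relative apart in like direction in both populations (-0.44 and -0.58), and is named after its values were seen.

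Tnfrsf26 has 27 listed relatives in the tumor necrosis factor receptor family, of which 26 were tested. In L-GMP 19 measured higher and 7 lower in the knockout, with 1 at an unadjusted p under 0.05, Cd27, a costimulatory receptor gene of lymphocytes (0.78, SE 0.35). In whole leukemia 18 were higher and 8 lower, again with 1, the death receptor gene Fas (0.76, SE 0.32). Tnfrsf4 (0.35) and Tnfrsf21 (0.29) came next in L-GMP, and Tnfrsf13c (0.30) and Tnfrsf1b (-0.66) in whole leukemia. The decoy receptor genes Tnfrsf22 and Tnfrsf23, which neighbour Tnfrsf26, differed by 0.32 (SE 0.34) and -0.42 (SE 0.36) in L-GMP, and by -0.00 and -0.10 in the whole leukemia. Of the ligand and death receptor signalling genes, 10 of 12 were tested. Their differences were -0.31 to 0.30 in L-GMP and -0.34 to 0.29 in whole leukemia, with Birc2 and Birc3, which encode inhibitors of apoptosis, at 0.30 and -0.31 and Traf2 at -0.13 in L-GMP. In whole leukemia those of lowest p were Bid (-0.29), Casp8 (-0.34) and Birc2 (0.29).

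Tns1 has 3 tensin relatives. Tns2 differed by 0.08 in L-GMP and 0.17 in whole leukemia, Tns3 by 0.16 and -0.43, and Tns4 by -0.32 and -0.27, with SEs of 0.15 to 0.25. In the wider list of tensins and focal adhesion genes, with 21 of 23 tested, 17 were higher and 4 lower in knockout L-GMP and 12 and 9 in whole leukemia. The parvin genes Parvg (0.30, SE 0.12) and Parva (0.13) were among those of lowest p in L-GMP, and the actin crosslinker gene Actn1 (1.82, SE 0.62) in whole leukemia. None of these passed.

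Dennd5a, the closest relative of Dennd5b, differed by 0.48 (SE 0.18, limma adjusted p = 1) in L-GMP and 0.13 (SE 0.18) in whole leukemia, in a direction opposite to Dennd5b. Of 24 DENN domain and Rab genes tested of 26, 11 were higher and 13 lower in L-GMP and 12 each way in whole leukemia. Besides Dennd5a and Dennd6a, Dennd6b (0.22) had a low p in L-GMP, and Dennd4c (-0.45) and Madd (-0.39) in whole leukemia. Among 42 ubiquitin-specific protease genes, relatives of Usp24, 19 were higher and 23 lower in L-GMP and 20 and 22 in whole leukemia. The large relatives Usp9x (0.15 and 0.04), Usp34 (-0.06 and 0.09) and Usp47 (-0.02 and -0.18) had SEs of 0.13 to 0.20. Usp22 (0.41), Usp40 (-0.46) and Usp46 (0.37) had the lowest p in L-GMP, and Usp5 (-0.47), Usp15 (0.75) and Usp40 (-0.51) in whole leukemia, none of them called. The 4 relatives of Msantd3 tested, Msantd1, Msantd2, Msantd4 and Naif1, lay between -0.14 and 0.08 in L-GMP and between -0.40 and 0.10 in whole leukemia, the lowest being Msantd4 in whole leukemia (-0.40, SE 0.18).

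In the RefSeq gene order of assembly GRCm38.p6, which served only to find neighbours, 3 of the 6 genes lie on chromosome 4, namely Msantd3, Usp24 and 1700080G11Rik. Chromosome 4 holds 6.10% of the tested genes with a place. Dennd5b lies on chromosome 6, Tns1 on chromosome 1 and Tnfrsf26 on chromosome 7. Usp24 is the second tested gene after Prkaa2, with 1 tested gene, the lipid phosphatase gene Plpp3, between them. Plpp3 measured 30.9 to 37.8 on all 12 arrays, with differences of -0.08 (SE 0.09) in L-GMP and 0.01 in whole leukemia. From Prkaa2 to Msantd3 there are 185 tested genes in between, and to 1700080G11Rik 241.

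The 5 tested genes on each side of each gene, 58 in all since Dennd5b has only 3 on one side, were compared between genotypes. By limma 0 of the 58 were called in either population, against 0.00563% of all genes (1 gene) in L-GMP and 0% in whole leukemia. In each population 2 had a limma unadjusted p under 0.05. These were Tmem35b (-0.28) and Resf1 (-0.64) in L-GMP and Invs (-0.35) and Cars (0.33) in whole leukemia. Arrays did not overlap for 4 of the 58 in L-GMP (6.90%, against 9.48% of all genes) and for 7 in whole leukemia (12.1%, against 11.2%), and for 0 in like direction in both. Around 1700080G11Rik the 10 neighbours differed by -0.28 to 0.16 in L-GMP, and the nearest, the connexin gene Gjb5 and CK137956, by -0.01 and -0.09. Around Msantd3 the range was -0.12 to 0.22 in L-GMP, with Tex10 at 0.10 and Tmeff1 at 0.03, and -0.35 to 0.33 in whole leukemia, where Invs was lowest (SE 0.11, limma adjusted p = 0.8, arrays apart). The 10 neighbours of Usp24 ranged from -0.13 to 0.22 in L-GMP and from -0.09 to 0.11 in whole leukemia, with Bsnd at 0.15 and -0.01. The 8 neighbours of Dennd5b ranged from -0.64 to 0.13 in L-GMP, with 3010003L21Rik at -0.05 and the methyltransferase gene Etfbkmt at 0.12, and the lowest was Resf1. Of the genes next to Tns1, 6030407O03Rik and Rufy4 differed by 0.07 and 0.15 in L-GMP. The neutrophil chemokine receptor gene Cxcr2, in the second place after Tns1, measured 2.22 higher in knockout whole leukemia (limma unadjusted p = 0.0673) and -0.09 in L-GMP, and is named after its values were seen. Beside Tnfrsf26, Cars differed by 0.07 in L-GMP and 0.33 in whole leukemia.

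**Figure D4:**
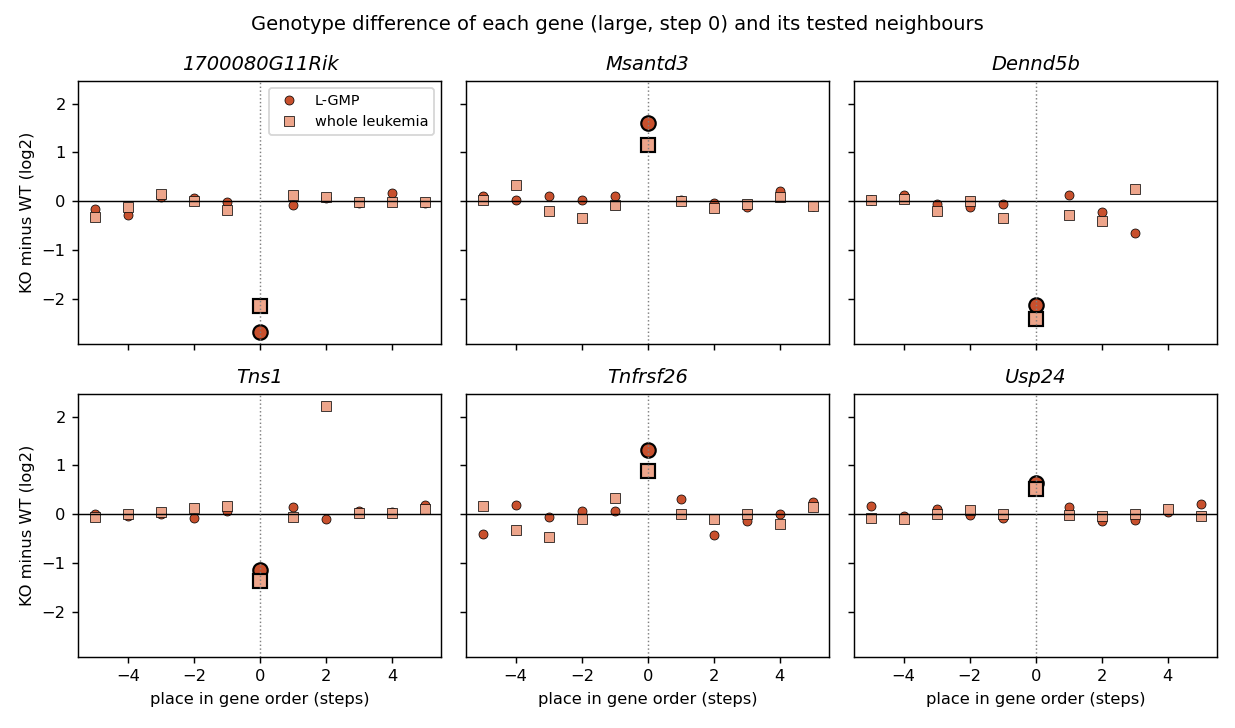
Knockout minus wild type, in log2, for each of the 6 genes (large symbols at 0) and for up to 5 tested genes on each side in chromosomal order, in L-GMP (circles) and whole leukemia (squares). The neighbours lie between -0.64 and 0.33, except Cxcr2 near Tns1, which measured 2.22 in whole leukemia.

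The upstream sequences of 5 of the 6 genes were read from the RefSeq promoter windows, over the 250 bases before the annotated start. For Msantd3, which has 3 windows, all were read. GC content lay at the 41.1 percentile of all windows for 1700080G11Rik, and was 63.6% for Dennd5b, 74.4% for Tns1 and 76.8% for Usp24, against a median of 52.4% over 32851 windows. The Msantd3 windows, which overlap in part, held 47.2%, 62.4% and 86.0%. CpG pairs numbered 2 upstream of 1700080G11Rik, against a median of 6, but 28 upstream of Dennd5b, 30 upstream of Tns1 and 33 upstream of Usp24, at percentiles of 92.4 to 96.0.

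A set of 7 short motifs was searched on both strands in these 250 bases. They were the E-box CACGTG, the AP-1 motif TGANTCA, the FOXO motif GTAAACA, the box known as CCAAT, the TATA box with letters TATAAA, the GC box with letters GGGCGG and lastly the ETS motif GGAAGT. An E-box was found upstream of 1700080G11Rik, beginning 33 bases before its start, and in 6.02% of all windows. GC boxes were found 3 times upstream of Tns1, 2 times upstream of Usp24 and in each Msantd3 window, and in 32.7% of all windows. None of the AP-1, FOXO, CCAAT box, TATA box and ETS motifs was found in the 7 windows, and these occur in 6.75%, 3.17%, 33.8%, 12.4% and 19.7% of all windows. No motif was found in all 5 genes. A match is a run of letters and does not show that a factor binds.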

How the data were processed

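The authors deposited 1 intensity per probe set and array on a linear scale, from 17.96 to 9108 over 33794 probe sets. Labelled cDNA came from NuGEN amplification kits, per the labels' protocols. How background and normalization were handled by the authors is not stated in these sources. Values were taken to log2 with no pseudocount. The platform annotation gave 23521 probe sets 1 symbol, 1814 several and 8459 none. Genes were tested where their mean log2 was at least 4.72, the 25% quantile over probe sets.

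All genes were fitted with limma 3.58.1 in R 4.3.3 (lmFit, eBayes, 1 mean per group, 12 arrays), with Benjamini-Hochberg adjustment over 17749 genes and a threshold of 0.05. Intervals are 95%, and the number of arrays limits the precision. Those of the 6 genes' genotype differences make no allowance for the choice of the genes on these differences. The scripts were tested on simulated data. The members and gene lists were chosen with earlier results of these data known. Besides the 6 genes, the text names AMPK alpha subunit and gate genes, the 3 named genes most like each, the nearest tested neighbours, listed paralogs and the 3 genes of lowest p per family list, except 1 that is not reported here.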

Additional observations from a re-analysis of the deposited data

How the results depend on the processing

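The alternatives run were quantile normalization, no filter, the lowest 50% left out, a trended and robust variance, array weights, the mean of all probe sets, an offset of 16, a replicate block, leaving out each array in turn and leaving out both number-2 knockout arrays. They gave 252 values of the 12 genotype differences, of which 130 equal the reported value because the setting does not enter that difference. The other 122 kept its sign, a direction that the choice of genes bears on. The number of genes apart in both populations was 5 or 6. It was 6 only without wild-type whole leukemia array 3 or knockout whole leukemia array 2, the arrays by which Tnfrsf26 overlapped. Shares over all genes were not counted under these settings, so nothing is read from these counts. In L-GMP against whole leukemia 0 of the 6 genes were called by limma under these settings. Over all genes the count called was 1 with a trended and robust variance and 0 to 9 without 1 array, with 9 without knockout whole leukemia array 1. The cause was not tested. Uncalled population differences near 0 changed sign. Without 1 array they ran from -0.073 to 0.16 for Msantd3, from -0.39 to 0.094 for Dennd5b, from -0.15 to 0.067 for Tns1 and from -0.25 to 0.046 for Tnfrsf26. With array weights Tns1 was at 0.048, and without both number-2 knockout arrays Msantd3 was at -0.18, Dennd5b at 0.041 and Tns1 at 0.11. Family and neighbour lists had 0 calls in each alternative.

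Deviations of L-GMP and whole leukemia arrays of the same number correlated at 0.36, 0.62 and 0.30 in the wild type. In the knockout they correlated at 0.13, 0.09 and 0.43. The labels do not say whether arrays of one number share a mouse, and the main fit did not take the numbers as pairs. If they share a mouse, like differences in both populations are not independent repeats. With genotype and number as a replicate block 0 genes were called in L-GMP against whole leukemia, and 1700080G11Rik was at 0.28 (limma adjusted p = 0.592). With number as a replicate block 0 family or neighbouring genes were called between genotypes, while the count of 5 genes apart in both populations is read from the intensities and no block can change it.

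Knockout intensities of 1700080G11Rik and Dennd5b near the dim end, and wild-type intensities of Msantd3 toward it, limit the differences of these genes. With 3 arrays a group an exact two-sided permutation test has no p below 0.1.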
